A study of Homo sapiens with 18 samples.

Results

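The keratin genes were taken as the genes of the count table whose symbol is KRT followed by a number and, in some, a letter from A to C. These were 55 of the 57133 genes, of which 29 were type I (KRT222, a type I-like relative, among them) and 26 type II. The hair keratin-associated proteins and the keratin pseudogenes were kept apart. Only 7 of the 55 reached 10 counts in any RNA-seq library. In PCGF6-KO cells, 5 of these 7 were called higher than in WT cells, beside 14.9% of all tested genes, and 2 of the 5 (KRT17 and KRT80) could be tested only because of their counts in PCGF6-KO. The simple epithelial chains KRT8, KRT18 and KRT19 made up nearly all of the keratin RNA in both genotypes.

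Keratins are the intermediate filament proteins of epithelial cells. A filament is built from heterodimers of an acidic type I and a basic type II chain, so the chains are usually made in matched pairs, and their filaments are anchored at desmosomes. Simple, single-layered epithelia use KRT8 with KRT18 and, in many tissues, KRT7 and KRT19. Stratified epithelia use other pairs in their basal and upper layers, and hair and its inner root sheath use a set of their own. KRT8 and KRT18 are the earliest keratins of the embryo and are also made by human PSCs.

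RNA-seq was performed on cells of the established human induced PSC line PGP1, grown in mTeSR1 on Matrigel. The 6 libraries fell into 3 groups of 2, namely WT, PCGF6-KO clone 1 and PCGF6-KO clone 2, where each clone is a single CRISPR-Cas9 knockout line of PCGF6, a subunit of the Polycomb complex PRC1.6, made with paired guides at its first exon. Nothing in the labels says that the 2 libraries of a group came from separate cultures, so the p-values measure the spread between these libraries, which may be technical. Where PCGF6-KO was compared with WT as 1 group, its 4 libraries came from only 2 clones. The spread in that comparison also holds the difference between the clones, and the 4 libraries are not 4 independent lines. The libraries held between 15877396 and 18918609 counts. PCGF6 itself had 268 and 300 counts in WT, while clone 1 had 99 and 103 and clone 2 had 187 and 159. Both clones lay below WT, clone 2 by less, and counts from outside the deleted part do not check the deletion. The summed level of 10 PSC markers was 8742 to 9094 counts per 1000000 (CPM, TMM-scaled throughout) in WT. In PCGF6-KO libraries it was 7994 to 8656 CPM. Of the 10, 0 were called higher (beside 14.9% of all tested genes) and 1, SOX2, lower (beside 8.7%). Mean SOX2 was 327 CPM in WT, 246 in clone 1 and 159 in clone 2 (n = 2 each). By clone, SOX2 was called lower in clone 2 and was not called in clone 1. Markers of other cell types rose: the summed level of 5 primitive streak or mesoderm markers went from 6.41 to 6.45 CPM in WT to 616 to 746 CPM in PCGF6-KO. Among them, 4 of 4 tested genes were called higher, beside 14.9% of all tested genes. TBXT (0 and 12 counts in WT) and EOMES (3 and 5) could be tested only because of their counts in PCGF6-KO.

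Of the 6 simple epithelial keratins, 4 were detected, meaning at least 10 counts in a library: KRT7, KRT8, KRT18 and KRT19. KRT20, the keratin of intestinal and other digestive epithelia, was at 0 in all 6 libraries, and KRT23 never passed 2 counts. Of the 22 stratified epithelial keratins, 3 were detected: KRT10, a suprabasal keratin of the epidermis, KRT17, a keratin of skin appendages and stressed or wounded epithelium, and KRT80, a widely expressed type II keratin of epithelial cells. The basal layer pair was near or at 0, with KRT5 at 0 and 1 counts in WT, compared with 2 and 1 in clone 1 and 1 and 1 in clone 2, and with KRT14 at 0 counts in every library. Of all 22 stratified keratins, 11 had no count in any library, and the highest count of any undetected one was 5, in KRT15. None of the 26 keratins of hair and inner root sheath was detected. In this class 15 were at 0 throughout, and the highest count was 3. KRT222, placed in none of the classes, had 5 and 9 counts in the WT libraries, 3 and 6 in those of clone 1 and 1 and 0 in those of clone 2. Over all 48 undetected keratins, 27 had no count in any library. A count of 0 allows up to 3 counts, or 0.157 to 0.187 CPM at these depths, which covers counting error only.

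The detected keratins lie in the family's clusters on chromosomes 12 and 17 (positions from GENCODE release 44, GRCh38). KRT8 spans chr12:52897187-52949954 on the reverse strand and KRT18 chr12:52948871-52952906 on the forward strand. The genes face away from each other at one end of the type II cluster and share 525 exonic bases on opposite strands. Reads from the shared part cannot be told apart, since the strand setting of the counting is not given in the sources used here. KRT7 (chr12:52232520-52252186) and KRT80 (chr12:52168996-52192014) lie at the other end. KRT7 shares 282 exonic bases with KRT7-AS, which had at most 2 counts in a library, and KRT10 shares 61 with KRT10-AS1, both on the opposite strand. KRT17 shares 307 with an unnamed long noncoding RNA gene, also on the opposite strand. Neither KRT10-AS1 nor that gene had a row among the counts. Of the type I genes, KRT10 lies at chr17:40818117-40822614, KRT19 at chr17:41523617-41528308 and KRT17 at chr17:41619442-41624842.

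Promoter sequence from RefSeq (GRCh38.p14), 250 bases before to 50 after a start site, was matched for 34 of the 55 keratin genes, in 38 windows. Of the detected keratins, only KRT8 and KRT10 had a window, so both are shown. Any link between their letters and their counts was not tested. The 250 bases before the start are given 5' to 3' for KRT8 at chr12:52926470-52926719 and for KRT10 at chr17:40822615-40822864, both on the reverse strand, with TATAAA in capitals.
KRT8: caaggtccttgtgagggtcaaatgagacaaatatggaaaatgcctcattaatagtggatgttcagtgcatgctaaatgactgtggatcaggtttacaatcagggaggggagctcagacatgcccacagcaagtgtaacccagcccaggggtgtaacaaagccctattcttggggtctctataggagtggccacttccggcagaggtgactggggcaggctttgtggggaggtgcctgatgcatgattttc
KRT10: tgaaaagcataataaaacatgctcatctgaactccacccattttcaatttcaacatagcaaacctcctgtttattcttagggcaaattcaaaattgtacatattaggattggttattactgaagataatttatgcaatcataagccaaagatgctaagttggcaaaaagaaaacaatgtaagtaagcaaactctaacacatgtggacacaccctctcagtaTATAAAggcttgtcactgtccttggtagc
The KRT10 sequence holds TATAAA just before the start site that both annotated KRT10 transcripts use. The KRT8 sequence holds none of the motifs searched. It lies 23485 bases inside the outer end of the gene, and 1 of 18 annotated KRT8 transcripts starts within 50 bases of it, so it is not the start of most annotated KRT8 transcripts.

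As a family, the keratin windows were rich in TATA boxes and poor in CpG. Apart from those of KRT8 and KRT10, all of these windows belong to undetected keratins. KRT7, KRT17, KRT18, KRT19 and KRT80 had none, so the figures do not describe them. TATAAA, searched on both strands like every motif here, was present in 21 of 38 keratin windows (55.3%) and in 11.5% of all 35116 windows. The SP1 letters GGGCGG were present in 6 keratin windows (15.8%) against 45.0% of all. The median GC content was 45.7% against 58.7%, and the median number of CpG dinucleotides was 2 against 14. CACGTG, the E-box bound by MAX and MYC, was found in 3 keratin windows (7.89%, against 7.26% of all), all of them of 1 undetected gene, KRT40, and GCGGGAA, the letters taken for E2F6, in 1 (2.63%, against 6.55%). GCCNNNGGC, the letters taken for TFAP2 factors, was found in 5 (13.2%, against 23.2%), and TGANTCA, the letters of AP-1, in 0 (against 7.71%). A match is a description of the letters and not a binding site. KRT40 has 4 windows and KRT85 has 2, and neighbouring keratins arose by duplication, so the windows are not independent.

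KRT8, the type II chain of simple epithelia, was the keratin with the most counts. It had 8021 and 7649 counts in WT, against 33464 and 28736 in clone 1 and 42099 and 33890 in clone 2. Every PCGF6-KO library lay far above both WT libraries, and both libraries of clone 2 lay above those of clone 1. KRT8 was at 475 ± 24.2 CPM in WT (SD, n = 2), 1666 ± 120 in clone 1 (n = 2) and 2217 ± 148 in clone 2 (n = 2). With the 4 PCGF6-KO libraries as 1 group, KRT8 was 4.08-fold higher than in WT (log2 fold change 2.03, SE 0.15, adjusted p = 1.49e-05). Unless another tool or setting is named beside it, the adjusted p of a gene comes from the quasi-likelihood test of edgeR, corrected by Benjamini-Hochberg over 17672 genes. A gene counted as called where this p was under 0.05 and its log2 fold change was beyond 0.6 in either direction. In bulk RNA, more cells that make a transcript and more of it per cell cannot be told apart.

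KRT18, the type I partner of KRT8, followed the same order of groups. It had 3927 and 3864 counts in WT, while clone 1 had 11221 and 9461 and clone 2 had 14336 and 11321. The groups did not overlap in CPM. The level was 236 ± 6.80 CPM in WT, 554 ± 47.0 in clone 1 and 748 ± 60.2 in clone 2 (SD, n = 2 each), and PCGF6-KO was 2.75-fold above WT (log2 fold change 1.46, SE 0.16, edgeR adjusted p = 0.000124).

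KRT19, a small type I keratin of simple epithelia that lacks the tail domain, rose by less. It had 1396 and 1353 counts in WT, compared with 2869 and 2410 in clone 1 and 2892 and 2249 in clone 2. All 4 PCGF6-KO libraries lay above WT, and the libraries of the 2 clones overlapped. The level was 83.4 ± 3.29 CPM in WT, 141 ± 12.4 in clone 1 and 150 ± 13.7 in clone 2 (SD, n = 2 each). PCGF6-KO was 1.75-fold above WT (log2 fold change 0.80, SE 0.09, edgeR adjusted p = 0.000118).

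KRT7, a type II keratin of ducts, amnion and trophoblast, was not called higher. Its counts were 64 and 47 in the WT libraries, 62 and 56 in those of clone 1 and 36 and 19 in those of clone 2. Clone 1 lay between the WT libraries, while both clone 2 libraries lay below all others. The level was 3.37 ± 0.788 CPM in WT, 3.16 ± 0.115 in clone 1 and 1.58 ± 0.567 in clone 2 (SD, n = 2 each). The pooled comparison did not pass the test (log2 fold change −0.50, SE 0.37, edgeR adjusted p = 0.330), nor did clone 1 (−0.09, SE 0.25, adjusted p = 0.794), whereas clone 2 was called lower (−1.07, SE 0.28, adjusted p = 0.00261). The call in clone 2 was lost without WT replicate 1 (−0.81, adjusted p = 0.0573), without clone 2 replicate 2 (−0.76, adjusted p = 0.0546) and when tested against a fold change of 1.5 (adjusted p = 0.0671).

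The 3 detected keratins of stratified epithelia did not move together. KRT10 had 149 and 108 counts in WT, against 88 and 98 in clone 1 and 124 and 99 in clone 2. The clone 1 libraries were below both WT libraries, and those of clone 2 overlapped WT. The pooled comparison did not pass (log2 fold change −0.44, SE 0.21, edgeR adjusted p = 0.132). Clone 1 was called lower (−0.64, SE 0.18, adjusted p = 0.00502), at 5.00 ± 0.557 CPM against 7.81 ± 1.89 in WT (SD, n = 2 each), and clone 2 was not called (−0.26, SE 0.18, adjusted p = 0.234). The clone 1 call was lost without WT replicate 1 (−0.38, adjusted p = 0.185), without clone 1 replicate 1 (−0.53, adjusted p = 0.0545), under DESeq2 (adjusted p = 0.0591) and when tested against a fold change of 1.5 (adjusted p = 0.620).

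KRT17 was close to absent in WT, with 1 count in each library, and had 36 and 23 counts in clone 1 and 38 and 37 in clone 2. No PCGF6-KO library came near the WT level. The ratio of PCGF6-KO to WT was 30.9 with a 95% counting interval from 8.39 to 258. The fitted log2 fold change of 4.80 (SE 0.55, edgeR adjusted p = 0.000186) depends on the prior count, since WT had 1 count a library. KRT80 had 1 and 2 counts in WT, while clone 1 had 14 and 6 and clone 2 had 9 and 14. All PCGF6-KO libraries were above WT at counts that are low everywhere. The ratio was 6.61 (95% counting interval 2.12 to 33.3), and the fitted log2 fold change was 2.64 (SE 0.71, edgeR adjusted p = 0.0174). This call was lost under DESeq2 (adjusted p = 0.0508, and 0.115 and 0.0562 for clone 1 and clone 2), without WT replicate 1 (adjusted p = 0.138) and without WT replicate 2 (adjusted p = 0.0834). Both genes passed the filter on low counts only through the PCGF6-KO libraries.

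**Figure D1:**
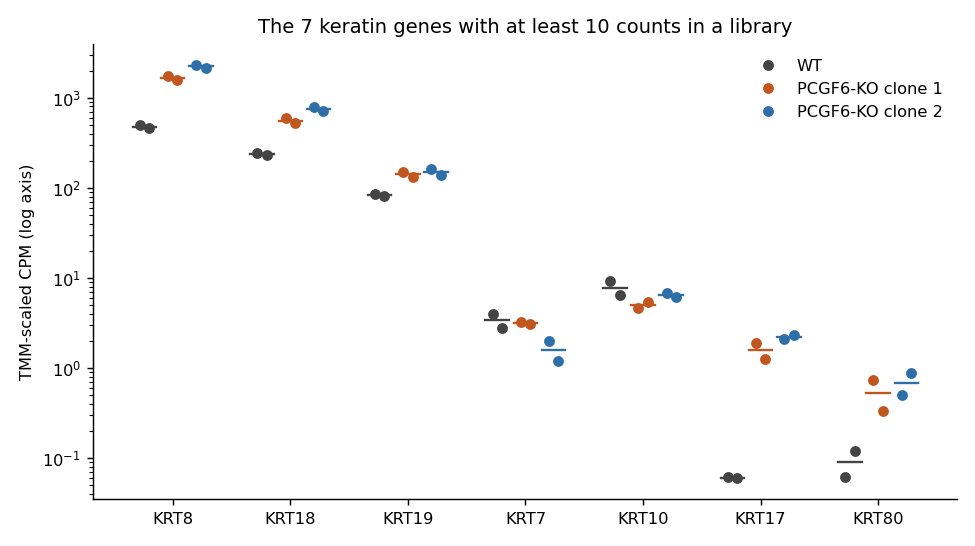
Level of the 7 detected keratin genes in each library, in TMM-scaled CPM on a log axis, where points are libraries and horizontal lines are group means. KRT8, KRT18 and KRT19 sit above 80 CPM in every library and are higher in all 4 PCGF6-KO libraries, and KRT7 and KRT10 overlap between PCGF6-KO and WT.

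Against WT, 5 of the 7 tested keratins were called higher in PCGF6-KO and 0 lower, where 14.9% of the 17672 tested genes were called higher and 8.7% lower. Of these 5, KRT17 and KRT80 are the genes that had to be higher to be tested, which leaves 3 among the 5 that were detected in WT too. The same 5 were called higher in clone 1, beside 16% of all genes, and in clone 2, beside 16.9%, and 13.4% of all genes were called higher in both clones. The lower calls were 1 in clone 1 (KRT10, beside 8.8% of all genes) and 1 in clone 2 (KRT7, beside 12.5%). The keratins called lower in both clones were 0, beside 7.19% of all genes. All 4 PCGF6-KO libraries lay above both WT libraries for these 5 keratins, as they did for 29.5% of all tested genes, and below both for 0 keratins, beside 27.6%. The median log2 fold change of the 5 keratins with more than 3 counts in each WT library was 0.80, while that of all tested genes was 0.00. The comparisons of the clones share the WT libraries and are not independent of each other.

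Between the clones, KRT8 and KRT18 were higher and KRT7 lower in clone 2. The difference in log2 level was 0.41 for KRT8 (SE 0.06, edgeR adjusted p = 6.97e-06) and 0.43 for KRT18 (SE 0.06, adjusted p = 1.04e-05). Both passed the test and stayed under the fold threshold. KRT7 was the only keratin called between the clones (−0.98, SE 0.28, edgeR adjusted p = 0.0143), in a comparison where 7.87% of all genes were called, 3.73% higher and 4.14% lower in clone 2. Its call was lost under DESeq2 (adjusted p = 0.130), without clone 1 replicate 1 (adjusted p = 0.0613), without clone 2 replicate 2 (−0.67, adjusted p = 0.181) and when tested against a fold change of 1.5 (adjusted p = 0.527). KRT10, KRT17, KRT19 and KRT80 did not pass, with differences from 0.08 (KRT19) to 0.47 (KRT17).

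**Figure D2:**
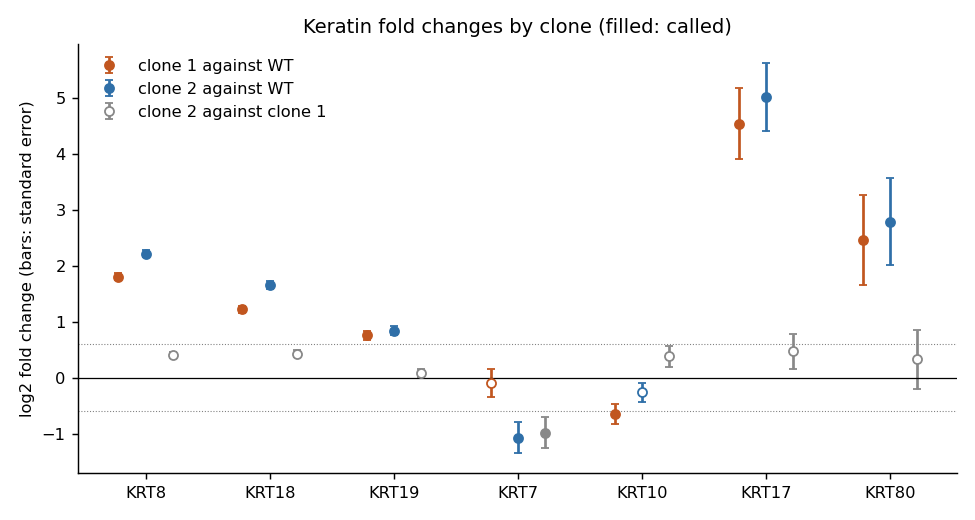
Log2 fold change of the 7 detected keratins for clone 1 against WT, clone 2 against WT and clone 2 against clone 1, with bars of 1 standard error, filled points where a gene was called and dotted lines at ± 0.6. KRT8 and KRT18 are higher against WT in both clones with small errors, KRT17 has the largest fitted change and wide errors, and KRT7 is called lower in clone 2 alone.

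To compare levels between keratins, counts were divided by the gene lengths deposited beside them and then scaled to transcripts per 1000000 (TPM). In WT, KRT18 was highest at 327 ± 8.47 TPM, followed by KRT8 at 307 ± 14.8, KRT19 at 159 ± 5.81, KRT10 at 16.2 ± 3.88 and KRT7 at 3.67 ± 0.846 (SD, n = 2 each). In PCGF6-KO, KRT8 was highest at 1191 ± 166 TPM, followed by KRT18 at 854 ± 129, KRT19 at 264 ± 17.8, KRT10 at 11.3 ± 1.58, KRT17 at 2.54 ± 0.540, KRT7 at 2.48 ± 1.08 and KRT80 at 0.590 ± 0.229 (SD, n = 4 each). The order of KRT17 and KRT7 differed between the clones. KRT7 was above KRT17 in both libraries of clone 1 (3.44 and 3.31 against 2.61 and 1.78 TPM) and below it in both of clone 2 (1.99 and 1.19 against 2.74 and 3.04 TPM). The genes above them kept their order in every PCGF6-KO library. KRT8, KRT18 and KRT19 took 97.1 to 99.3% of the keratin TPM in each library. The order of KRT8 and KRT18 in WT depends on the lengths used. The deposited length of KRT8 (6881 bases) covers all its annotated exons, while its canonical transcript has 1784 bases, and by canonical lengths, as RPKM, which divides CPM by the length in kilobases, KRT8 was at 266.5 and KRT18 at 167 in WT.

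The summed level of the type II chains increased by more than that of the type I chains, on sums for which no test was made. Summed type I keratins were at 503 ± 18.1 TPM in WT, 1029 ± 76.2 in clone 1 and 1236 ± 95.6 in clone 2 (SD, n = 2 each). Summed type II keratins were at 311 ± 15.5 TPM in WT, 1062 ± 66.2 in clone 1 and 1327 ± 83.0 in clone 2. Relative to the WT mean, PCGF6-KO was at 2.25 ± 0.276 for type I and 3.84 ± 0.530 for type II (SD, n = 4). Left without KRT8 and KRT18, type I was 1.59-fold and type II 0.898-fold of WT, so the sums turned on these genes. The ratio of type II to type I was 0.625 and 0.613 in the WT libraries, 1.02 and 1.04 in clone 1 and 1.06 and 1.09 in clone 2. All PCGF6-KO libraries lay above WT. With canonical transcript lengths, the ratio was higher throughout, at 1.18 and 1.15 in WT, compared with 1.87 and 1.90 in clone 1 and 1.92 and 1.96 in clone 2, and the groups again did not overlap.

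**Figure D3:**
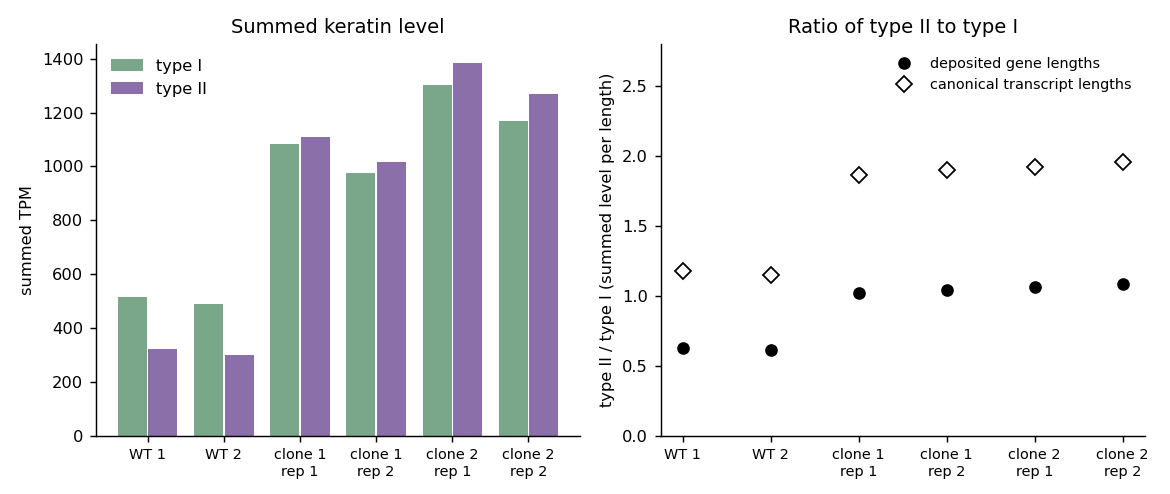
Summed TPM of type I and type II keratins in each library (left) and the ratio of type II to type I by deposited gene lengths and by canonical transcript lengths (right). The ratio by deposited lengths sits at 0.613 and 0.625 in WT and at 1.02 or more in every PCGF6-KO library.

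Of 10 known keratin pairs, 3 had both chains above 3 counts in the libraries. The log2 ratio of KRT8 to KRT18, in TPM, was −0.07 and −0.11 in the WT libraries, 0.48 and 0.51 in those of clone 1 and 0.46 and 0.49 in those of clone 2. It was higher in both clones than in WT, and the libraries of the clones overlapped. The difference of 0.57 between PCGF6-KO and WT does not depend on the lengths. The log2 ratio of KRT8 to KRT19 was 0.96 and 0.94 in WT, against 1.99 and 2.02 in clone 1 and 2.31 and 2.35 in clone 2, with a difference of 1.21. The log2 ratio of KRT7 to KRT19 was −5.26 and −5.66 in WT, while clone 1 had −6.34 and −6.24 and clone 2 had −7.14 and −7.70, a difference of −1.40. No pair overlapped between PCGF6-KO and WT. A two-sided exact permutation test gave p = 0.133 for each of the 3 pairs, which is the smallest p that 4 against 2 libraries allow. Benjamini-Hochberg adjustment leaves it at 0.133, because the 3 are equal. Ratios that do not overlap always give this p, so the test adds nothing to them. The other 7 pairs, among them KRT5 with KRT14, KRT1 with KRT10 and KRT6A with KRT16, could not be given because a chain was at or near 0. KRT10 and KRT17 were thus detected while their usual type II partners KRT1 and KRT6B had at most 1 count in a library.

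Pseudogenes carried counts for some keratins that the genes themselves did not. Reads from near-identical copies can be split between them, and the handling of reads with several alignments is not given in the sources used here. The 6 pseudogenes of KRT16, a keratin of stressed and appendage epithelium, held more counts than KRT16 itself. KRT16P1 had 2 and 1 counts in WT, 80 and 74 for clone 1 and 77 and 67 for clone 2. KRT16P3 had 4 and 2 counts in WT, 46 and 40 for clone 1 and 74 and 75 for clone 2, and KRT16P2 had 0 in WT, 6 and 3 for clone 1 and 54 and 26 for clone 2. KRT16 had 0 in both WT libraries, 2 and 2 in clone 1 and 0 and 1 in clone 2. These 3 pseudogenes were thus higher in every PCGF6-KO library, with KRT16 itself at or near 0. The pseudogenes of KRT17 had 5 and 2 counts in the WT libraries, 31 and 23 in those of clone 1 and 39 and 45 in those of clone 2, close to the counts of KRT17. With pseudogene counts added to the parent gene, KRT17 had a log2 fold change of 3.78 (edgeR adjusted p = 0.000245), and KRT16 was tested and called higher (5.00, adjusted p = 3.10e-05). The KRT16 pseudogenes held 6 and 3 counts in WT, so this sum could be tested only because of its counts in PCGF6-KO. Nearly all of it came from the pseudogenes, so the call is not one of KRT16 itself. The values of KRT17 are therefore uncertain as to which copy the reads came from. The 50 KRT8 pseudogenes summed to 117 and 125 counts in WT and 159 to 178 in PCGF6-KO, far below KRT8 itself, and the 67 KRT18 pseudogenes to between 12 and 24 counts in each library.

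Along the chromosomes, the expressed keratins lay at the ends of their clusters or alone among neighbours with few or no counts. On chromosome 12, 23 keratin genes lie between KRT7 and KRT8 over 645001 bases, and the highest count of any of them in any library was 3. No rise beside that of KRT8 and KRT18 was detectable in these genes at this depth. On chromosome 17, 16 keratins lie between KRT10 and KRT19 with at most 5 counts, and 3 between KRT19 and KRT17 with at most 2. Of 19 genes that flank the clusters, 17 were tested, and 2 were called higher (beside 14.9% of all genes) and 3 lower (beside 8.7%), with a median log2 fold change of −0.10. TNS4, a tensin of focal adhesions, had 23 and 15 counts in WT, against 74 and 50 in clone 1 and 124 and 93 in clone 2 (log2 fold change 2.05, SE 0.43, edgeR adjusted p = 0.00528). CCR7, a chemokine receptor, was the other one called higher, and both calls were lost without WT replicate 2. CCR7, at 4 and 2 counts in WT, could be tested only because of its counts in PCGF6-KO. IGFBP6 and IGFBP4, which bind insulin-like growth factors, fell by 1.78 (SE 0.27, edgeR adjusted p = 0.000916) and 0.90 (SE 0.08, adjusted p = 3.06e-05) on the log2 scale. The third lower call, HAP1, was lost without each WT library in turn.

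Genes that anchor keratin filaments rose in part. Of 21 desmosome and keratin linker genes, 17 were tested, and in PCGF6-KO 11 were called higher (beside 14.9% of all genes) and 0 lower (beside 8.7%), with a median log2 fold change of 0.70. Among the 11, PKP1 (9 and 10 counts in WT) could be tested only because of its counts in PCGF6-KO. In clone 1, 9 were higher (beside 16% of all genes) and in clone 2, 10 (beside 16.9%), and 8 were higher in both clones (beside 13.4%). DSP, desmoplakin, the plaque protein that binds keratin filaments, had 3627 and 3815 counts in WT, while clone 1 had 10803 and 10062 and clone 2 had 14177 and 12324. The groups did not overlap, and clone 2 was the highest, as for KRT8 and KRT18 (log2 fold change 1.56, SE 0.16, edgeR adjusted p = 8.91e-05). Also higher were the plakophilins PKP3 (1.87, SE 0.20, edgeR adjusted p = 0.000138) and PKP2 (1.29, SE 0.21, adjusted p = 0.00130) and the desmosomal membrane protein PERP (1.38, SE 0.08, adjusted p = 4.13e-06). The desmosomal cadherin DSG2 and plakoglobin (JUP), named after their values were seen, were not called, at 349 ± 21.3 and 287 ± 5.24 CPM in WT (SD, n = 2) against 329 ± 6.05 and 288 ± 36.0 CPM in PCGF6-KO (SD, n = 4).

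Most of the other intermediate filament genes rose too. Of 15, 14 were tested, and in PCGF6-KO 11 were called higher (beside 14.9% of all genes) and 0 lower (beside 8.7%), with a median log2 fold change of 1.42. Among the 11, PRPH and SYNM (7 counts in each WT library) could be tested only because of their counts in PCGF6-KO. In clone 1, 10 were higher (beside 16%) and 0 lower (beside 8.8%), and in clone 2, 12 were higher (beside 16.9%) and 1, the astrocyte filament GFAP, was lower (beside 12.5%). VIM, vimentin, the filament of mesenchymal cells and also of PSCs, had 750 and 879 counts in WT, compared with 5850 and 5518 in clone 1 and 8827 and 7056 in clone 2. PCGF6-KO was higher in every library, clone 2 the most (log2 fold change 2.96, SE 0.23, edgeR adjusted p = 1.53e-05). NEFH, the heavy neurofilament chain, rose by 2.74 (SE 0.19, edgeR adjusted p = 7.73e-06), and SYNM, synemin, which joins filaments of vimentin and desmin, rose by 2.68 (SE 0.41, adjusted p = 0.000971). PRPH, peripherin of peripheral neurons, was also called, at 0 and 2 counts in WT and 4 to 17 in PCGF6-KO, and lost its call without each WT library in turn. VIM thus rose by more than KRT8 on the log2 scale, though the difference between their changes was not tested.

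**Figure D4:**
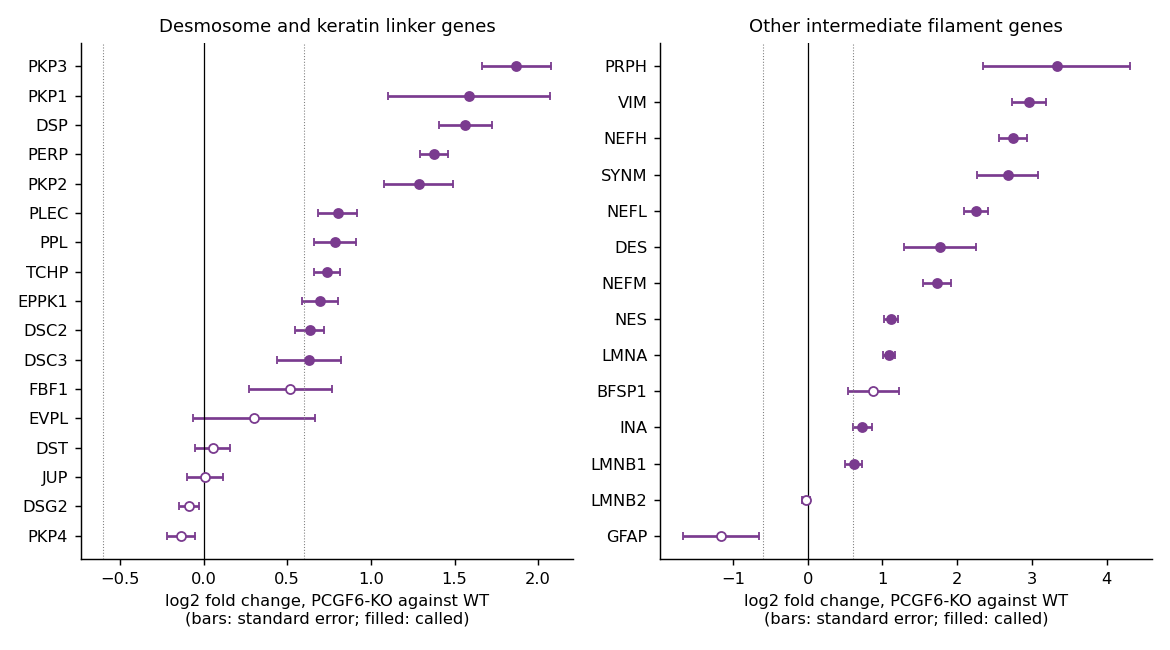
Change from WT to PCGF6-KO, as log2 fold change, for the tested desmosome and keratin linker genes (left) and the other intermediate filament genes (right), with bars of 1 standard error and filled points where a gene was called. In these lists 11 of 17 and 11 of 14 genes are called higher, beside 14.9% of all tested genes, and none lower, beside 8.7%. Among those called, PKP1, PRPH and SYNM could be tested only because of their counts in PCGF6-KO.

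Among 16 transcription factors of epithelia, 14 were tested, and in PCGF6-KO 6 were called higher (beside 14.9% of all genes) and 1 lower (beside 8.7%), with a median log2 fold change of 0.30. Among the 6, TFAP2A and TFAP2B could be tested only because of their counts in PCGF6-KO. TFAP2A, a factor of surface ectoderm, amnion and trophoblast, had 6 and 5 counts in the WT libraries, 276 and 237 in those of clone 1 and 294 and 272 in those of clone 2 (log2 fold change 5.47, SE 0.25, edgeR adjusted p = 7.06e-07). GRHL3, a grainyhead factor of surface ectoderm, had 12 and 17 counts in WT, against 361 and 316 in clone 1 and 618 and 489 in clone 2 (4.83, SE 0.42, edgeR adjusted p = 3.25e-05). KLF5, a Krüppel-like factor of epithelia and trophectoderm, rose by 3.76 (SE 0.32, edgeR adjusted p = 2.75e-05). TFAP2B had 0 counts in WT and 5 to 25 in PCGF6-KO, and lost its call without each WT library in turn. GRHL2, a grainyhead factor of epithelial junctions, fell by 0.80 (SE 0.08, edgeR adjusted p = 0.000109) and was called lower in both clones.

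Markers of several cell types moved with the rise of KRT8, KRT18 and KRT19, and their part in it was not tested. Of 12 amnion or trophoblast markers, KRT7 among them, 9 were tested and 7 were called higher (beside 14.9% of all genes). All of these 7 but GATA3 could be tested only because of their counts in PCGF6-KO. They are HAND1, CDX2, TFAP2A, TFAP2B, ISL1 and GATA2, with at most 9 counts in a WT library. The number called was thus set in large part by the filter on low counts. The 12 summed to 11.4 to 13.4 CPM in WT and 124 to 267 CPM in PCGF6-KO. HAND1 and CDX2 made up most of the PCGF6-KO sum, at means of 71.7 and 57.7 CPM, against 0 and 0.0607 in WT. GABRP, at 6.74 CPM in WT and 6.71 in PCGF6-KO, and KRT7 were not called, and VTCN1, CGA and ELF5 were too low to test. The 6 definitive endoderm markers summed to 13.0 to 13.6 CPM in WT and 124 to 174 CPM in PCGF6-KO, with 5 called higher (beside the same 14.9%). SOX17, GATA6 and FOXA2, among these 5, had at most 7 counts in a WT library. They could be tested only because of their counts in PCGF6-KO. The 6 fibroblast markers summed to 832 to 844 CPM in WT and 1705 to 2012 CPM in PCGF6-KO, with 5 called higher (beside 14.9%) and 1 lower (beside 8.7%). The lower one, THY1, made up most of the WT sum, at a mean of 613 CPM in WT and 270 in PCGF6-KO. COL3A1, LUM and DCN, among the 5 called higher, had at most 6 counts in a WT library. These, too, could be tested only because of their counts in PCGF6-KO. The 9 markers of epidermis or other stratified epithelium summed to 14.98 to 18.6 CPM in WT and 16.3 to 20.9 CPM in PCGF6-KO. In that list KRT14, KRT1 and IVL were at 0 in every library, 5 had at most 3 counts in any library, and of the 2 tested genes, KRT10 and SFN, 0 were called. In clone 1, SFN was called higher (log2 fold change 0.75, edgeR adjusted p = 6.51e-05) and KRT10 lower, and in clone 2, 0 were called.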

How the data were processed

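RNA-seq counts of 6 libraries were used. Per the labels and the study's methods, the authors trimmed reads with Trim Galore (0.6.2), aligned them to GRCh38 with HISAT2 (2.1.0) and ran featureCounts (1.6.4), and deposited its raw counts per gene with gene lengths. The annotation release, strand setting and handling of multi-mapped reads are not given in the sources used here. ChIP-seq was not used here.

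From the counts, genes were filtered with filterByExpr on the 2 genotypes, scaled by TMM and tested with glmQLFit and glmQLFTest of edgeR (4.0.16; limma 3.58.1, R 4.3.3), as PCGF6-KO against WT and, in a fit with 3 groups, as each clone against WT and against each other. All 7 keratins with at least 10 counts in a library are named, with KRT5 and KRT14, and up to 4 largest called changes in each direction, called in both clones, from each list. The keratins, lists and tests were chosen with earlier results of these data known. Positions and canonical transcripts came from GENCODE release 44. Ratios at low counts carry exact binomial intervals for counting error only, without library spread.

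The results were recomputed with DESeq2 (1.42.0), scaling by RLE or the upper quartile, other filters and thresholds, the replicate block, other groupings, pseudogene counts added to parents, and leaving out each library. Canonical transcript lengths were added after seeing the data. On simulated counts, PCGF6-KO against WT called 99 of 100 genes changed 2-fold, 100 of 100 changed 4-fold and 2 unchanged genes, of 17206 run. The changed genes were drawn from those above a mean count that KRT17 and KRT80 do not reach. Both clones were given the same change, so recovery at such low counts or with differing clones was not measured. Replicates differed beyond counting noise, with a chi-square per gene of 2.40 (WT), 4.50 (clone 1) and 3.20 (clone 2).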

Additional observations from a re-analysis of the deposited data

Results flagged for a closer look

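KRT7, KRT8 and KRT18 differed between the PCGF6-KO clones by a test of the difference itself. Clone 2 against clone 1 had a log2 fold change of −0.98 for KRT7 (edgeR adjusted p = 0.0143), 0.41 for KRT8 (adjusted p = 6.97e-06) and 0.43 for KRT18 (adjusted p = 1.04e-05). Each clone is 1 line, so the clone and anything that came with its derivation or culture cannot be told apart. PCGF6 counts were lower in clone 1 (99 and 103) than in clone 2 (187 and 159). Of 29 groups of 4 libraries, 0 held a library far from the others by a Dixon test for 1 outlying value. Only PCGF6-KO has 4 libraries, so WT and the single clones were not covered. A difference between the 2 clones widens the range and makes such a flag less likely.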

How the results depend on the processing

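Of 430 fold changes of keratins under an alternative, 403 kept their direction and their side of the threshold, 20 lost and 2 gained a call, and 5 turned in direction, all of them uncalled values. The 5 higher calls against WT became 3 in each comparison when every library needed 10 counts, since KRT17 and KRT80 were then not tested. The lower call in clone 1 (KRT10) became 0 under DESeq2 and under the test against a fold change of 1.5, and ranged from 0 to 1 over left-out libraries. The lower call in clone 2 (KRT7) became 2 with no filter, which added KRT222 (−3.57, adjusted p = 0.0126), and 0 under the test against 1.5, with a range from 0 to 1. Between the clones, the lower call became 0 under DESeq2 and under the test against 1.5, with a range from 0 to 1, and the higher calls became 2 by adjusted p alone (KRT8 and KRT18) and 1 with pseudogene counts added (KRT16, 0.69).

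Over left-out libraries, 4 uncalled values changed sign. KRT7 in clone 1 ranged from −0.31 to 0.16 and KRT10 in clone 2 from −0.49 to 0.0075, both highest without WT replicate 1. Between the clones, KRT80 ranged from −0.12, without clone 1 replicate 2, to 0.70, and KRT19 from −0.0125, without clone 2 replicate 1, to 0.18, with −0.0064 without clone 1 replicate 2. KRT80 was not tested without clone 1 replicate 1 or clone 2 replicate 2. Without KRT8 and KRT18, PCGF6-KO over WT was 1.59 for the type I sum and 0.898 for the type II sum, and the type II to type I ratio was 0.0222 (WT), 0.0160 (clone 1) and 0.00924 (clone 2). By canonical transcript lengths it was 1.16, 1.88 and 1.94.

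The replicate numbers did not pair the libraries (correlations of deviations of 0.03, 0.06 and 0.12 over 14850 genes). With the replicate block, 5 keratins were higher and 0 lower in PCGF6-KO, and the block changed no other count. Upper-quartile scaling moved the median of all genes by −0.02 to −0.05. None of the 48 keratins under 10 counts in every library passed the filter on low counts used in the report.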
